A study of Homo sapiens with 12 samples.

Results

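The libraries described here are the controls of a study of NXP800, a small molecule tested against osteosarcoma cells, in MNNG/HOS. They are the 6 RNA-seq libraries whose titles name DMSO, the solvent, out of 12 in all: 3 of MNNG/HOS cells kept with DMSO for 6 h and 3 kept with it for 24 h. The other 6 come from the same cell line given NXP800 for 6 h (3 libraries) or 24 h (3 libraries) and are used only beside a result. All groups share the single cell line, its high-glucose medium with serum, polyadenylated RNA as the input and a strand-specific library kit. No library of cells without DMSO, and none taken at the start of the treatment, was analysed here. The comparison asks how the expression of untreated MNNG/HOS cells at 24 h stood against that at 6 h. All 24 h libraries are one set and all 6 h libraries another, so culture time and library set are confounded, and every difference below is a difference between both at once: they cannot be told apart. The labels do not say whether replicates came from separate cultures, so p-values measure the spread between these libraries, which may be technical.

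MNNG/HOS is a human osteosarcoma line, obtained by treating HOS cells with the mutagen MNNG, and it carries a fusion of *MET*. Among the pathways described below, cells make cholesterol and fatty acids through enzymes whose genes are driven by the SREBP transcription factors, which are released from the endoplasmic reticulum when membrane sterol is low. NF-kB factors sit in the cytoplasm bound to inhibitors such as IκBα until an inflammatory signal frees them to switch on cytokines, survival genes and their own inhibitors. The mitochondrial genome encodes a few subunits of the respiratory chain and its own ribosomal RNAs, while all other subunits, and the proteins of the cytosolic ribosome, come from the nucleus.

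Each DMSO library held between 30810614 and 31947656 counts on genes, so that the spread between replicates, and not counting, set the precision of all but low genes. The 24 h libraries held fewer read pairs in all, 34531955 to 34734386 against 35103258 to 35227691 at 6 h, but more counts on genes on average. The 2 sets differed in measures that belong to the library and not to a gene. Reads that fell on no annotated gene made up 6.66 to 8.14% of read pairs at 6 h and 2.73 to 3.37% at 24 h, and reads aligned to several places 1.89 to 1.95% and 2.96 to 3.09%. Between 21481 and 21814 genes had at least 1 count at 6 h and between 20564 and 20904 at 24 h. None of these ranges overlapped. The exact two-sided permutation test gave p = 0.1 for each of these measures, the smallest p that 3 libraries against 3 can give. NXP800 libraries stood in the same order, with 6.83 to 7.70% of read pairs on no gene at 6 h and 2.90 to 3.67% at 24 h. The part of these library measures in the gene differences was not tested, apart from the offsets described with GC content.

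At baseline the 15 most abundant transcripts per length were mostly those of the mitochondrial genome, and the others were *GAPDH*, *FTL* and genes of the cytoskeleton and of the ribosome. Levels are given as counts per 1000000 (CPM, on TMM-scaled library sizes) per kilobase of exon, as the mean ± SD over the 6 DMSO libraries. *COX3*, a mitochondrially encoded subunit of cytochrome c oxidase, headed the list at 7129 ± 2999, ahead of *COX1* at 5163 ± 1865 and *COX2* at 4982 ± 1892. The first nuclear gene was *GAPDH*, a glycolytic enzyme, at 3374 ± 487, and the ribosomal protein gene *RPS2* (1831 ± 440.1), the ferritin light chain gene *FTL* (1781 ± 508) and the actin genes *ACTG1* (1705 ± 173) and *ACTB* (1437 ± 232) followed among the leading 15. Neighbours among the 4 leading genes differed by less than the larger of their SDs, and the SD of the mitochondrial genes includes the difference between the sets described below.

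**Figure D1:**
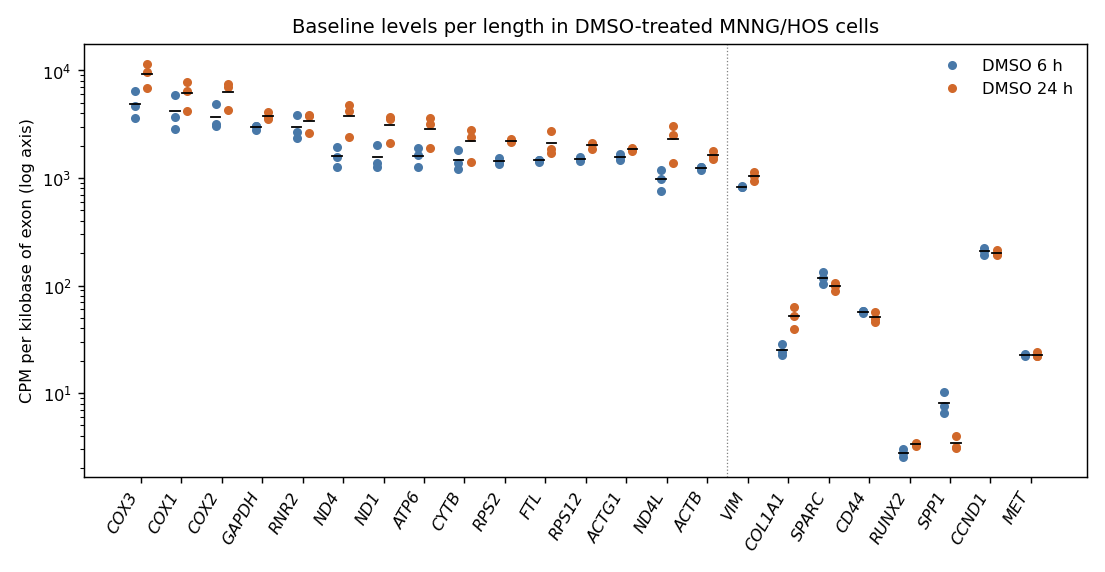
Levels per length of the 15 leading genes (left of the dotted line) and of 8 marker and tumour genes, as CPM per kilobase of exon on a log axis. Points are the 6 DMSO libraries by set and black lines the mean of 3; the mitochondrial genes are spread over a wider range than *GAPDH* or *RPS2*, and *SPP1* stands lower in the 24 h set.

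The libraries carried a mesenchymal profile, and genes of the osteoblast lineage and bone matrix were uneven. Of 16 mesenchymal and osteosarcoma markers 14 passed the filter on low counts, 5 of them called higher at 24 h and none lower by edgeR, at a median log2 difference of 0.22 (4 and 4 with library size as the only scaling), where 21.0% of all tested genes were higher and 20.6% lower. *VIM*, the intermediate filament of mesenchymal cells, stood at 935 ± 129 CPM per kilobase, the secreted matrix protein *SPARC* at 108 ± 15.3, the hyaluronan receptor *CD44* at 53.8 ± 5.13 and *NT5E*, the surface ectonucleotidase CD73, at 53.7 ± 8.69. Type I collagen was uneven: *COL1A1* was at 38.4 ± 16.4, while *COL1A2*, which encodes its partner chain, and *COL3A1* were too low to be tested. Among 20 osteoblast genes, *RUNX2*, the lineage factor, was present at 3.06 ± 0.358, whereas *ALPL*, the bone alkaline phosphatase, had at most 7 counts in a library, and 4 members (*SP7*, *BGLAP*, *DMP1* and *POSTN*) had no count in any of the 6. The 20 genes summed to 1048 to 1272 CPM at 6 h and 1014 to 1134 CPM at 24 h. The highest member reached 615 CPM, and 9 were below 1 CPM in every library. Of the 11 tested, *DLX5* and *BMP4* were higher at 24 h and *SPP1* and *PHEX* lower.

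Markers of other cell types were close to absent. Summed over 9 epithelial markers the level was 7.60 to 9.08 CPM, over 9 blood markers 1.84 to 3.43, over 6 endothelial markers 1.27 to 2.08 and over 6 neural markers 2.96 to 4.05 CPM, and of the 9 of these 30 genes that passed the filter none was called different between the sets by edgeR, while the other 21 did not pass it. *CDH1* of epithelium, *PTPRC* of blood cells, *CDH5* of endothelium and *SOX10* of glia were all below 1 CPM in every library, *SOX10* at 0. The 6 muscle and fat markers summed to 6.11 to 12.01 CPM at 6 h and 1.20 to 5.51 CPM at 24 h, which came nearly all from *FABP4*, a fatty acid carrier (24 h minus 6 h, log2 -1.49 ± 0.39, adjusted p = 0.0057), with *MYOG* and *ADIPOQ* at 0.

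Of 20 genes known from osteosarcoma, 3 neighbours on chromosome 9, the cell cycle inhibitors *CDKN2A* and *CDKN2B* and the metabolic enzyme *MTAP*, had 0 counts in all 6 DMSO libraries. Taking 3 counts as the limit that a 0 allows, their level was at most 0.0939 to 0.0974 CPM, depending on the library. The other 17 were measured. *CCND1*, the G1 cyclin, stood at 205 ± 12.6 CPM per kilobase, the receptor tyrosine kinase *AXL* at 82.7 ± 13.8, *CDK4* at 77.4 ± 5.49, *MET* at 22.7 ± 0.825 and *RB1* at 9.27 ± 1.22. Of these 17, 4 were called higher at 24 h (*PDGFRB*, *ERBB2*, *PDGFRA* and *AXL*) and 2 lower (*RB1* among them), against 21.0 and 20.6% of all genes. With the offsets for GC content and length described below 3 were higher, *AXL* no longer, and none lower, and with library size as the only scaling 3 were higher and 8 lower. The levels of *PDGFRB*, a platelet-derived growth factor receptor, were 13.8, 12.3 and 10.6 CPM at 6 h and 22.5, 25.8 and 22.4 CPM at 24 h, so that every 24 h library lay above every 6 h library (log2 0.95 ± 0.14, adjusted p = 6.9e-05).

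The study examined the integrated stress response under NXP800, with GCN2 as the kinase it followed. The kinases that start this response were all expressed in control cells. *EIF2AK1* (HRI) stood at 19.0 ± 2.44 CPM per kilobase, *EIF2AK4* (GCN2) at 9.96 ± 0.490, *EIF2AK2* (PKR) at 5.95 ± 0.544 and *EIF2AK3* (PERK) at 0.726 ± 0.0247, an order in which each level lay beyond the SD of the next. Their effector *ATF4* was at 176 ± 12.04 and the heat shock factor *HSF1* at 22.99 ± 3.26. Between the sets *EIF2AK1* rose by 0.32 and *EIF2AK2* fell by 0.21 on the log2 scale, the latter only without the offsets for GC content and length (-0.03 with them), while *EIF2AK4* and *EIF2AK3* were not called, at 0.10 and -0.01.

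The difference between the sets was wide but mostly small. Log2 differences are 24 h minus 6 h, ± the SE of the edgeR fit, and a gene is called at a Benjamini-Hochberg adjusted p below 0.05 in edgeR's quasi-likelihood test. Of 15979 genes tested, 6649 (41.6%) were called, 3358 higher at 24 h (21.0%) and 3291 lower (20.6%), with a median size of 0.44 on the log2 scale. Beyond 2-fold there were 917 (5.74%), of which 205 were higher and 712 lower. With library size as the only scaling, 1891 were higher and 5241 lower, and the median of all genes moved from -0.00 to -0.15, so directions below are relative to the TMM scale. In 8320 genes (52.1%) the 3 libraries of one set all lay on one side of the other 3. Over 9577 genes whose log2 CPM averaged 3 or more, pairs of libraries within the 6 h set differed by a root-mean-square of 0.135 to 0.174 on the log2 scale, pairs within the 24 h set by 0.174 to 0.193, and pairs across the sets by 0.354 to 0.389. The first principal component of the 500 most variable genes held 91.0% of the variance and separated the sets. In bulk samples a change in the share of some cells and a change in the RNA of each cell cannot be told apart, here or in any result below.

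**Figure D2:**
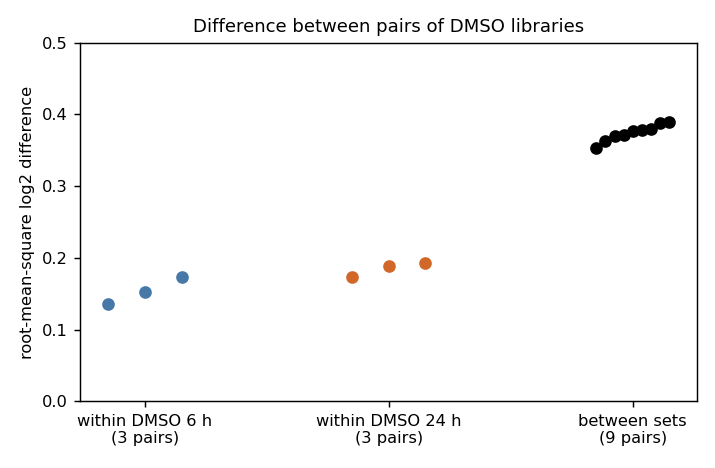
Root-mean-square log2 difference, over 9577 genes, for each pair of DMSO libraries. All 9 pairs across the sets (0.354 to 0.389) lie above all 6 pairs within a set (0.135 to 0.193).

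The same 2 library sets hold the NXP800 libraries, which share no library with the controls, although time on the drug is added there. From 6 h to 24 h under NXP800, 9818 genes (61.4%) were called, 4738 higher (29.7%) and 5080 lower (31.8%). Of the genes called in DMSO, 4843 (72.8%) were called in the same direction under NXP800, which is 49.3% of the NXP800 calls, and 334 in the opposite direction. The difference between the changes was itself called for 4129 genes (25.8%). For genes named below, 3 CPM values at 6 h precede 3 at 24 h, each in the order of replicates 1 to 3, and for some the change under NXP800 is set beside them.

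The largest differences among well-expressed genes were not of one kind. Highest at 24 h was *ATP8* (GRCh38.p14, chrMT:8366-8572), a short mitochondrial gene for a subunit of ATP synthase. Its levels were 6.08, 9.55 and 6.87 CPM at 6 h and 124, 196 and 232 CPM at 24 h, with a log2 difference of 4.62 ± 0.42, adjusted p = 9.5e-07. *ATP8* shares 22.2% of its bases with the next gene on the same strand, *ATP6*, for which the log2 difference was 0.85. Next was *RPL13AP5* (chr10:96750266-96750923), a processed copy of a ribosomal protein gene, at 4.37, 5.04 and 3.83 CPM at 6 h and 38.1, 41.8 and 31.8 CPM at 24 h (log2 3.08 ± 0.15, adjusted p = 2.5e-09). Reads of such copies can be split with the parent gene, so that value is uncertain, as is that of *HNRNPA1L3* (log2 1.33 ± 0.15), a copy of a splicing factor gene. *ND6*, the subunit of complex I encoded on the other mitochondrial strand, rose by 3.05 on the log2 scale.

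Among the remaining genes of the leading 10, *GAS5*, a host transcript of small nucleolar RNAs, was at 25.6, 30.99 and 31.7 CPM at 6 h and 75.3, 91.9 and 75.0 CPM at 24 h (log2 1.46 ± 0.10, adjusted p = 4e-08). *PTPRF*, a receptor tyrosine phosphatase of cell contacts, was at 92.2, 89.3 and 91.7 CPM at 6 h and 228, 213 and 252 CPM at 24 h (log2 1.34 ± 0.08, adjusted p = 2.3e-08), and *ITGB4*, the integrin β4 of hemidesmosomes, rose by 1.34. In each of the 10 the sets did not overlap, which was part of the rule that chose them. *SREBF1*, *ND3* and *ATP5MF* complete the 10 and are described with their pathways.

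At the other end stood *SNX22* (chr15:64151731-64157481), a sorting nexin. It was at 40.3, 40.3 and 24.5 CPM at 6 h and 2.64, 3.43 and 2.82 CPM at 24 h, with a log2 difference of -3.56 ± 0.18, adjusted p = 2.5e-09. *APOE* (chr19:44905796-44909393), the apolipoprotein that carries cholesterol, was at 29.2, 28.2 and 34.7 CPM and 4.55, 5.35 and 4.67 CPM (log2 -2.66 ± 0.14, adjusted p = 5.4e-09). *VIM-AS1* (chr10:17214239-17229985), which is transcribed opposite *VIM*, was at 105, 107 and 43.8 CPM and 19.6, 17.1 and 17.6 CPM (log2 -2.23 ± 0.23, adjusted p = 3.3e-06), with replicate 3 of the 6 h set at less than the other 2 replicates. All 3 genes were lower at 24 h under NXP800 too, at -3.32, -2.82 and -2.24 on the log2 scale. *SNX22* and *VIM-AS1* share 20.2 and 30.9% of their exon bases with a gene on the other strand.

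*BHMT2*, a methyltransferase of methionine metabolism, fell by 1.92, *HDAC9*, a histone deacetylase, by 1.56, *RUFY2* by 1.38, *GPNMB*, a glycoprotein of lysosomes and osteoblasts, by 1.35 and *ZSCAN31* by 1.29 on the log2 scale. *COL2A1*, the collagen of cartilage, was at 42.5, 24.3 and 23.9 CPM at 6 h and 5.65, 12.7 and 7.18 CPM at 24 h (log2 -1.83 ± 0.27, adjusted p = 7.1e-05). *CDKN1A*, which encodes the cell cycle inhibitor p21, was at 40.8, 39.1 and 43.4 CPM and 17.6, 14.1 and 18.1 CPM (log2 -1.31 ± 0.12, adjusted p = 8.7e-07), with every 24 h library below every 6 h library. *ZSCAN31* did not pass the test under NXP800 (log2 0.26), and the difference between the changes was 1.55, adjusted p = 0.0013.

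Genes of sterol synthesis were higher at 24 h. Of 24 tested genes of cholesterol synthesis and its control, 18 were called higher and none lower by edgeR, where 21.0% of all genes were higher, and the median log2 difference was 0.52 against -0.00 over all genes. The 3 with the largest rise were *INSIG1*, the sterol sensor that holds SREBP back, *EBP*, a sterol isomerase, and *DHCR7*, the last enzyme of the pathway. *EBP* (chrX:48521808-48528716) was at 67.9, 73.1 and 64.5 CPM at 6 h and 129.8, 161 and 153 CPM at 24 h (log2 1.11 ± 0.08, adjusted p = 6.7e-08). *INSIG1* was at 39.5, 55.0 and 35.1 CPM and 57.6, 112 and 114 CPM (log2 1.13 ± 0.29, adjusted p = 0.0055), and *DHCR7* at 70.5, 76.0 and 58.3 CPM and 96.8, 151 and 170.2 CPM (log2 1.03 ± 0.21, adjusted p = 0.00097). In all 3 genes, the largest called rises of the list, the sets did not overlap, as in 52.1% of all tested genes. Replicate 1 of the 24 h set lay nearest to the 6 h libraries.

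*SREBF2*, the gene of the factor SREBP2 itself, is named for its role and not by rule, with its values already seen. It was at 134, 141 and 119 CPM at 6 h and 179, 229.5 and 242 CPM at 24 h (log2 0.72 ± 0.18, adjusted p = 0.005), higher in every 24 h library than in any 6 h library. With offsets for GC content and length the value was 0.49 and was not called.

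Fatty acid synthesis moved with it. Of 14 tested genes 9 were called higher and 1 lower, against 21.0 and 20.6% of all genes, with a median log2 difference of 0.54. The gene that fell was *ME1*, malic enzyme, which was not called with offsets for GC content and length (-0.02). *SREBF1*, the gene of SREBP1, was at 96.9, 113 and 95.0 CPM at 6 h and 217, 327 and 239.9 CPM at 24 h (log2 1.36 ± 0.15, adjusted p = 4.6e-06). *FASN*, the fatty acid synthase, was at 624, 550.0 and 692 CPM and 1001, 1492 and 1404.8 CPM (log2 1.06 ± 0.12, adjusted p = 8.8e-06), and *LPIN1*, a phosphatidate phosphatase, rose by 1.07. Every 24 h library was above every 6 h library in these 3 genes, where the sets did not overlap in 52.1% of all tested genes.

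One library of the 24 h set stood apart in both lists. Against the mean of the 6 h set, the median member of the cholesterol list was 0.18, 0.62 and 0.74 higher on the log2 scale in replicates 1, 2 and 3 of the 24 h set, and that of the fatty acid list 0.07, 0.69 and 0.71. Without replicate 1 the log2 difference of *INSIG1* was 1.39 and that of *FASN* 1.22. The same library had the least mitochondrially encoded RNA of its set, with medians of 0.48, 1.02 and 1.20. Leaving out replicate 3 of the 24 h set lowered the number of called fatty acid genes from 9 to 5.

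Under NXP800 the cholesterol list moved both ways: of its 24 tested genes 6 were higher and 7 lower at 24 h than at 6 h, beside 29.7% and 31.8% of all genes. The difference between the changes was called lower under NXP800 for 13 of them and higher for 1, where 25.8% of all genes were called in either direction. *EBP* still rose under NXP800 (log2 0.50) but by less than in DMSO (difference -0.61, adjusted p = 0.00071). For *SREBF1* the difference was -0.59, adjusted p = 0.042. For *INSIG1* it was -0.93, adjusted p = 0.12, which missed the threshold.

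Genes of the inflammatory and NF-kB list were mostly lower at 24 h. Of 24 genes 19 passed the filter on low counts, and of these 11 were called lower at 24 h and 1 higher, where 20.6% of all genes were lower, with a median log2 difference of -0.75. Some of its members carry the letters of the classical NF-kB site next to their start. In the 250 bases before the transcription start, the 9 letters GGANTTTCC, read on both strands, stood in 9 of the 20 list members with a promoter in the RefSeq table (45.0%) and in 1.47% of all 27305 promoters. The 9 letters TCACNCCAC of a sterol response element, searched in the same way, stood in 1 of 18 promoters of the cholesterol list (*SREBF2*) and in 0 of 12 of the fatty acid list, against 0.875% of all. The inflammatory list was made of genes known for inflammation and NF-kB, so its high share follows from how it was chosen and is no result of these data. *BIRC3*, described below, is not among the 9 members with the NF-kB letters. A match describes letters in this window and not binding. The promoters of 4 members called lower, 2 chemokine genes and 2 inhibitors of the pathway, are shown 5′ to 3′ on the gene's strand, with the matching letters in capitals; coordinates are those of GRCh38.p14 in RefSeq.
CXCL1 (chr4:73869143-73869392, plus strand): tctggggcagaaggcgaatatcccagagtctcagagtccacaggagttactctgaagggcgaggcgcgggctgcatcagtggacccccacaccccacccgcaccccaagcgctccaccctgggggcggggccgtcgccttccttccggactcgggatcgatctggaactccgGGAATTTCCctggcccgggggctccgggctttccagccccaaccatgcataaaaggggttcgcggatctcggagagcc
CXCL8 (chr4:73740319-73740568, plus strand): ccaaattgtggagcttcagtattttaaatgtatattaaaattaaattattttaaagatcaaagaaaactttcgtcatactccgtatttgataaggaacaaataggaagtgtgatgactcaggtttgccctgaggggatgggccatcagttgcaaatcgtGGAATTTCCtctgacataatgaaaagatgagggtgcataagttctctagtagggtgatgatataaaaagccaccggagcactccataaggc
TNFAIP3 (chr6:137867009-137867258, plus strand): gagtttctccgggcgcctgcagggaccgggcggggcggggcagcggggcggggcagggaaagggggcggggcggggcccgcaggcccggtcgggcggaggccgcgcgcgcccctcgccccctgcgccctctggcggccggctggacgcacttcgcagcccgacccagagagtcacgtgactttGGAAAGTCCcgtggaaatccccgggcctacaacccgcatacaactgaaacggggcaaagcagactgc
NFKBIA (chr14:35404750-35404999, minus strand): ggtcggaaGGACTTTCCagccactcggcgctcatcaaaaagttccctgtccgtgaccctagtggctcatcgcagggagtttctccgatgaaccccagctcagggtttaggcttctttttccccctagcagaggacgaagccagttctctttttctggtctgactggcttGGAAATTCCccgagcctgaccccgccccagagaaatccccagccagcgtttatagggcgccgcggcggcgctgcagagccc

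The promoters of *CXCL1* and *CXCL8* hold the letters once, that of *TNFAIP3* holds them once on the opposite strand, and that of *NFKBIA* at 2 positions. All 4 genes were lower in every 24 h library than in any 6 h library, where the sets did not overlap in 52.1% of all tested genes. *CXCL1*, a neutrophil chemokine, was at 1.30, 1.23 and 1.37 CPM at 6 h and 0.0669, 0.235 and 0.0343 CPM at 24 h, where it rested on 1 to 7 counts per library (log2 -3.48 ± 0.47, adjusted p = 3.2e-05). *CXCL8*, which encodes interleukin 8, was at 1.74, 1.54 and 1.85 CPM and 0.301, 0.269 and 0.240 CPM (log2 -2.65 ± 0.46, adjusted p = 0.00029). *TNFAIP3*, the deubiquitinase A20, was at 4.21, 3.56 and 4.07 CPM and 1.54, 1.51 and 1.13 CPM (log2 -1.50 ± 0.18, adjusted p = 1.3e-05), and *NFKBIA*, which encodes IκBα, at 34.5, 33.0 and 31.8 CPM and 20.5, 21.4 and 20.7 CPM (log2 -0.67 ± 0.09, adjusted p = 3.1e-05). These 4 promoters were chosen for their letters after the values were seen.

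*BIRC3* (chr11:102317484-102339403), an inhibitor of apoptosis and a ubiquitin ligase of the pathway, had the lowest adjusted p of the members named. It was at 10.7, 10.8 and 10.7 CPM at 6 h and 1.47, 1.41 and 1.79 CPM at 24 h (log2 -2.79 ± 0.16, adjusted p = 8.5e-09), and no 24 h library came near a 6 h library. *ICAM1*, the adhesion molecule, was at 15.2, 17.6 and 15.3 CPM and 7.36, 10.6 and 10.6 CPM (log2 -0.75 ± 0.15, adjusted p = 0.0011). *TNFAIP2* was the member called higher (log2 0.51 ± 0.09, adjusted p = 0.00027), and with offsets for GC content and length it did not pass (0.23). Under NXP800 16 of the list fell and 2 rose, where 31.8% of all genes fell and 29.7% rose. The fall of *BIRC3* was larger there (-5.19, difference -2.40, adjusted p = 5.4e-06), as was that of *CXCL8* (-5.91, difference -3.26, adjusted p = 0.0038). For *CXCL1* the changes of -3.48 and -4.40 differed by -0.92, adjusted p = 0.41.

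**Figure D3:**
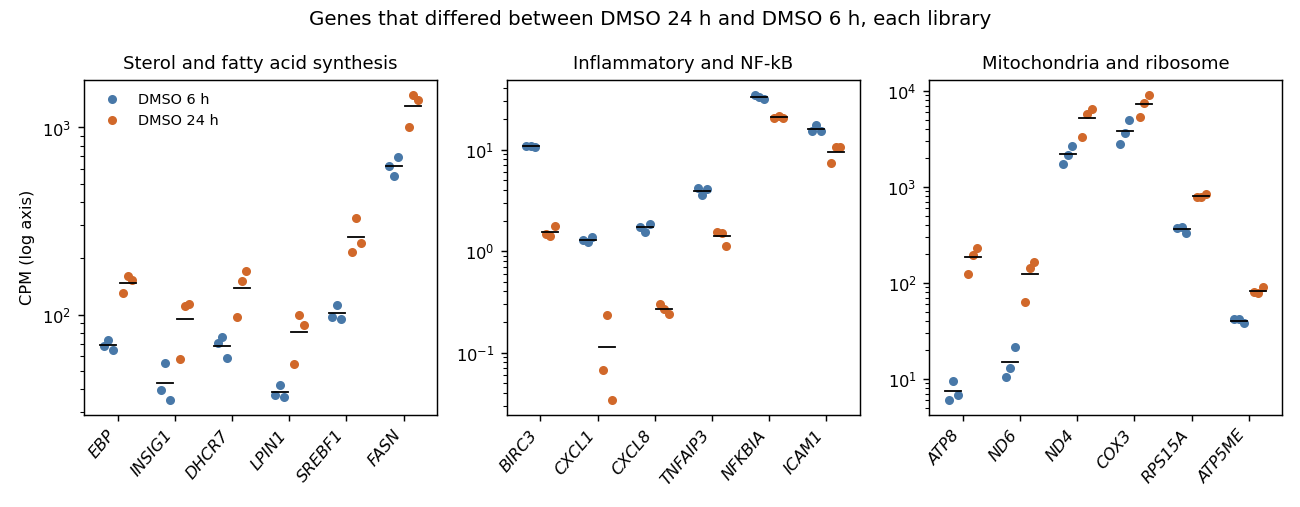
CPM of 18 genes in each of the 6 DMSO libraries, on a log axis, with a black line at the mean of 3. Left, genes of sterol and fatty acid synthesis are higher in the 24 h set; middle, inflammatory and NF-kB genes are lower, *CXCL1* on few counts; right, mitochondrial and ribosomal genes are higher, with *ATP8* furthest apart.

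Mitochondrially encoded genes were higher at 24 h. All 15 members of the list were tested, and 12 were called higher and none lower by edgeR, against 21.0 and 20.6% of all genes. Without single libraries the number called higher went from 8 (without replicate 3 of the 24 h set) to 14, with none lower. The median log2 difference was 0.91. Under NXP800 14 were higher, where 29.7% of all genes were, with a median of 0.93. The 15 genes took 2.10 to 3.63% of counts at 6 h and 2.88 to 4.98% at 24 h in DMSO, ranges that overlap. *ND4*, a subunit of complex I, was at 1734, 2146 and 2679 CPM at 6 h and 3282, 5725 and 6536 CPM at 24 h (log2 1.24 ± 0.26, adjusted p = 0.0011). *ND3*, another, was at 278, 238 and 268 CPM and 578, 675 and 860.1 CPM (log2 1.43 ± 0.17, adjusted p = 1.1e-05), and *COX3* rose by 0.93. Replicate 3 was the highest of the 6 h set in *ND4* and *COX3*, and replicate 1 the lowest of the 24 h set. The ribosomal RNA *RNR2* did not pass the test, at a log2 difference of 0.21 ± 0.20, adjusted p = 0.43. *COX1* and *CYTB* did not pass it either.

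Nuclear genes of the ribosome and of the respiratory chain rose more often than they fell. Of 79 ribosomal protein genes 55 were higher and 3 lower, against 21.0 and 20.6% of all genes, with a median log2 difference of 0.41. Their share of counts went from 7.44 to 8.43% at 6 h to 9.39 to 9.54% at 24 h. *RPS15A* was at 376, 379.7 and 333 CPM at 6 h and 781, 785 and 849 CPM at 24 h (log2 1.15 ± 0.08, adjusted p = 5.9e-08). The members that fell were *RPL21* (log2 -0.35 ± 0.08), *RPL23A* (-0.30 ± 0.07) and *RPS25* (-0.27 ± 0.08), the last no longer called without replicate 2 of the 6 h set. Ribosomal protein genes have many processed copies, so a read can fit several places, and the share of such reads also differed between the sets. Under NXP800 66 of the 79 were higher and none lower, where 29.7% of all genes were higher and 31.8% lower. *RPS10* had the largest rise (log2 1.68 ± 0.17) at 3.39 to 12.4 CPM, and it shares 31.5% of its exon bases with another gene.

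Of 60 nuclear genes of the respiratory chain and ATP synthase 40 were higher and 5 lower, with a median of 0.29. *COX6B1*, of cytochrome c oxidase, was at 95.3, 108 and 89.4 CPM at 6 h and 184, 179.8 and 188 CPM at 24 h (log2 0.92 ± 0.09, adjusted p = 1.2e-06). The ATP synthase genes *ATP5MF* and *ATP5ME* rose by 1.34 and 1.04, while *ATP5PF* (log2 -0.41 ± 0.06) and *NDUFV2* of complex I (-0.49 ± 0.06) fell. *ATP5ME* and *ATP5PF* share 61.3 and 37.3% of their exon bases with a gene on the other strand. The number called lower went from 5 to 2 without replicate 1 of the 24 h set or replicate 1 or 2 of the 6 h set, and to 3 without replicate 2 of the 24 h set. Of 30 genes of ribosome biogenesis 5 were higher and 10 lower, against 21.0 and 20.6% of all genes, with a median of 0.03.

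Cell cycle genes differed both ways in control cells. Of 30 genes of G2/M and mitosis 12 were higher and 7 lower, with a median of 0.06. Of 30 genes of G1/S and DNA replication 6 were higher and 8 lower, with a median of -0.04. Beside them, 21.0% of all tested genes were higher and 20.6% lower. *MKI67*, the proliferation marker, was at 300.03, 241 and 319.7 CPM at 6 h and 449, 424 and 456 CPM at 24 h (log2 0.63 ± 0.11, adjusted p = 0.00029), *CDC20*, the activator of the anaphase-promoting complex, rose by 0.59 and *CKS2* by 0.66. *CDK1*, the mitotic kinase, was at 204, 222 and 194 CPM and 149, 148 and 142 CPM (log2 -0.49 ± 0.06, adjusted p = 2e-05), and the G1/S cyclin gene *CCNE2* fell by 0.68. With offsets for GC content and length 13 mitotic genes were higher and 1 lower, without replicate 1 of the 6 h set 11 and 2, without replicate 3 of the 24 h set 11 and 3, and with library size as the only scaling 5 and 11. The G1/S counts became 1 and 6 with the offsets, 3 and 18 with library size only, 5 and 5 without replicate 2 of the 24 h set and 4 and 5 without replicate 3 of the 6 h set. Histone genes, whose transcripts mostly lack a poly(A) tail, had 9 of 29 higher and none lower by edgeR, but 3 and 1 with those offsets and 4 and 0 without replicate 3 of either set. Small nuclear and cytoplasmic RNAs without a tail, which are also sparse in such libraries, had 3 of 8 higher (*RN7SK*, *RN7SL1* and *RPPH1*).

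The mitotic genes changed differently under NXP800. All 30 mitotic genes had a lower change from 6 h to 24 h under NXP800 than in DMSO by the test of the difference, and 29 fell under NXP800. Of all genes, 25.8% were called for the difference in either direction, and 31.8% fell under NXP800. For *MKI67* the change was -0.92 under NXP800 against 0.63 in DMSO (difference -1.54, adjusted p = 4.7e-06). *CDK1* fell in each, by more under NXP800 (-1.69, difference -1.19, adjusted p = 3.5e-07).

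**Figure D4:**
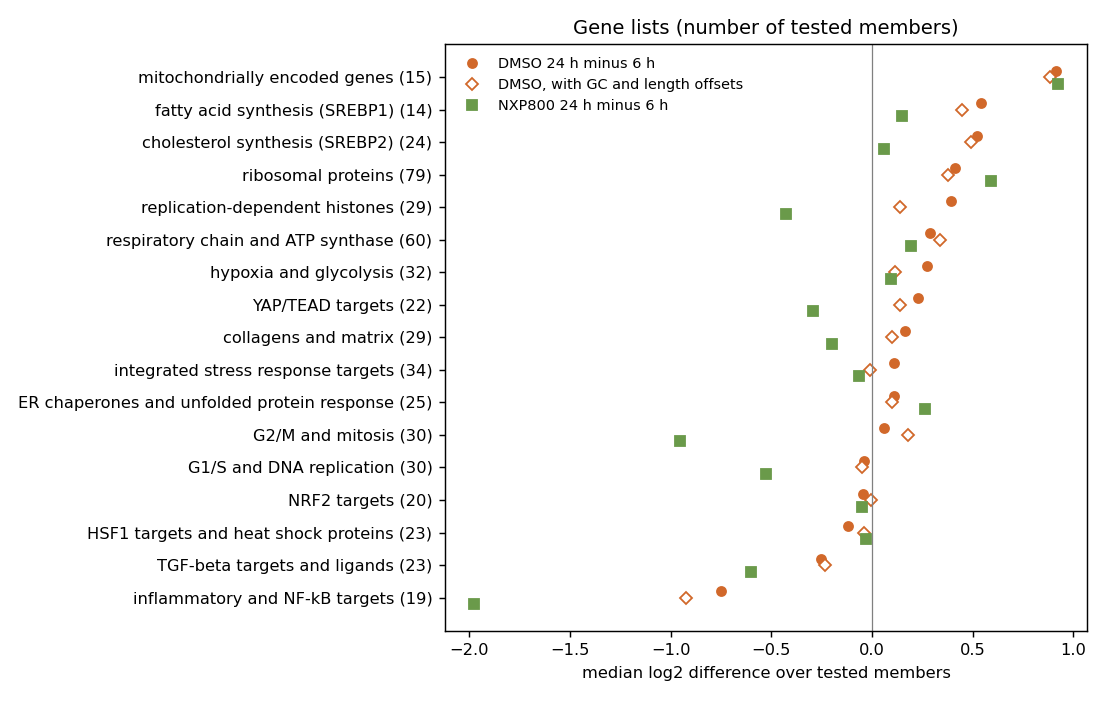
Median log2 difference, 24 h minus 6 h, over the tested members of 17 gene lists (number in brackets): filled circles for DMSO, open diamonds for DMSO with offsets for GC content and exon length, squares for NXP800. The sterol, fatty acid, mitochondrial and ribosomal lists lie right of 0 in DMSO and the inflammatory list left of it; squares and circles are far apart for mitosis, histones and the inflammatory list.

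Of 34 targets of the integrated stress response 9 were higher and 5 lower, against 21.0 and 20.6% of all genes, with a median of 0.11. The counts were 5 and 5 with offsets for GC content and length and 5 and 8 with library size as the only scaling. *PPP1R15A*, which encodes the phosphatase subunit GADD34, was at 117, 105 and 114 CPM at 6 h and 76.5, 57.9 and 73.4 CPM at 24 h (log2 -0.69 ± 0.13, adjusted p = 0.00066), and *DDIT3*, which encodes CHOP, was lower too (log2 -0.48 ± 0.12, adjusted p = 0.0058). *DDIT3* shares 31.6% of its exon bases with a gene on the other strand, and genes opposite another gene were more often far lower at 24 h, as described below. *TRIB3*, a pseudokinase induced by ATF4, was at 24.5, 29.3 and 28.3 CPM and 48.4, 31.6 and 31.9 CPM (log2 0.45 ± 0.13, adjusted p = 0.012), a difference carried by replicate 1 of the 24 h set: without it the value was 0.22, not called. *PCK2*, a mitochondrial carboxykinase, at 38.1, 43.8 and 39.3 CPM and 95.4, 54.1 and 50.5 CPM, and *DDIT4*, an inhibitor of mTORC1, at 34.6, 46.3 and 35.9 CPM and 91.1, 59.0 and 46.9 CPM, were highest in that library as well, with log2 differences of 0.72 and 0.75 that became 0.37 and 0.44 without it. *TRIB3*, *PCK2* and *DDIT4* were not called with offsets for GC content and length. Without that library 6 targets were higher and 8 lower, without replicate 2 of the 24 h set 10 and 3 and without replicate 2 of the 6 h set 8 and 3. Cytosolic tRNA synthetases, which include ATF4 targets, had 6 of 20 higher and 6 lower, but 2 and 6 without replicate 3 of the 6 h set and 3 and 6 without replicate 3 of the 24 h set. *ASNS*, asparagine synthetase, shares 49.3% of its exon bases with another gene and was at 0.253 to 1.47 CPM, so its rise (log2 1.18 ± 0.32) rests on few reads.

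Heat shock genes and chaperones showed small differences. *HSPA1B*, an inducible HSP70, was at 22.5, 27.3 and 38.6 CPM at 6 h and 59.2, 38.4 and 62.8 CPM at 24 h (log2 0.86 ± 0.20, adjusted p = 0.0025), with overlapping sets, and *DNAJB1*, its partner, at 94.6, 104 and 104 CPM and 138, 126 and 161 CPM (log2 0.49 ± 0.10, adjusted p = 0.00074). Of 23 HSF1 targets and heat shock genes 4 were higher and 6 lower, against 21.0 and 20.6% of all genes. With offsets for GC content and length the counts were 1 and 0, and *DNAJB1* was not called. Without replicate 3 of the 24 h set 3 were higher and 11 lower. Of 25 chaperones of the endoplasmic reticulum 8 were higher and none lower by edgeR, but 2 and 4 with library size as the only scaling. *HSPA5*, the chaperone BiP, was at 683, 632 and 614 CPM and 695, 786 and 1045 CPM (log2 0.39 ± 0.12, adjusted p = 0.017), highest in replicate 3 of the 24 h set, and was 0.21 without that library, not called, nor was it called without replicate 2 or 3 of the 6 h set. With library size as the only scaling the log2 difference of *HSPA5* was 0.24. *SDF2L1*, which works beside it, rose by 0.79. Without that replicate 5 chaperones were higher and 4 lower, and without replicate 3 of the 6 h set 3 and 1.

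Of 20 NRF2 targets, which guard against oxidants, 5 were higher and 8 lower, against 21.0 and 20.6% of all genes. *SLC7A11*, the cystine transporter, was at 205, 149 and 192 CPM at 6 h and 127, 73.2 and 60.8 CPM at 24 h (log2 -1.07 ± 0.23, adjusted p = 0.0013). *TXNRD1*, thioredoxin reductase, was at 836, 668 and 733 CPM and 492, 364 and 382 CPM (log2 -0.85 ± 0.16, adjusted p = 0.00054), and *OSGIN1* fell by 1.02 on the log2 scale. *SQSTM1*, the autophagy receptor p62, was at 891, 997 and 895 CPM and 625, 532 and 642 CPM (log2 -0.63 ± 0.09, adjusted p = 3.6e-05); under NXP800 its change was 0.11 (difference 0.74, adjusted p = 0.00035). *TKT*, transketolase of the pentose phosphate pathway, rose by 0.59. In all 5 of these genes, each named from among called genes, the sets did not overlap, as in 52.1% of all tested genes.

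Among the metal genes the leading rises were metallothioneins, proteins that bind zinc and copper. *MT2A*, the main human form, was at 832, 880.3 and 691 CPM at 6 h and 1358, 1437 and 1435 CPM at 24 h (log2 0.82 ± 0.10, adjusted p = 1.1e-05), *MT1E* at 150.2, 137 and 121 CPM and 261, 287 and 300.5 CPM (log2 1.06 ± 0.10, adjusted p = 1.9e-06) and *MT1X* rose by 0.97. These 3 are the largest rises of a list in which 6 of 16 genes were higher and 2, zinc transporters, lower (none lower without replicate 1 of the 24 h set or replicate 2 of the 6 h set), and their sequences are close to one another. In glycolysis and hypoxia 14 of 32 were higher and 3 lower. Beside this list and that of the metal genes, 21.0% of all genes were higher and 20.6% lower. *SLC16A3*, the lactate exporter MCT4, was at 297, 305 and 289 CPM and 479, 538 and 583 CPM (log2 0.84 ± 0.08, adjusted p = 1.9e-06), while *PGAM1*, phosphoglycerate mutase, was at 551, 584 and 526 CPM and 357, 367 and 353 CPM (log2 -0.63 ± 0.07, adjusted p = 4.5e-06). *ALDOA* was listed at 2.22 to 11.1 CPM and shares 54.2% of its exon bases with other genes, so its difference is not interpreted.

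Matrix and adhesion genes differed member by member. *COL1A1* was at 259, 202 and 217 CPM at 6 h and 357, 566 and 473 CPM at 24 h (log2 1.04 ± 0.16, adjusted p = 8.7e-05), *LGALS1*, the secreted lectin galectin-1, at 291, 331 and 257 CPM and 631, 609.6 and 597 CPM (log2 1.06 ± 0.11, adjusted p = 2.5e-06) and *FBN1*, fibrillin, rose by 0.77. Of 29 collagen and matrix genes 10 were higher and none lower by edgeR, against 21.0 and 20.6% of all genes. The counts became 5 and 5 with offsets for GC content and length and 5 and 7 with library size as the only scaling. *SPP1*, osteopontin, was at 54.7, 75.0 and 47.2 CPM and 23.02, 29.2 and 22.4 CPM (log2 -1.25 ± 0.27, adjusted p = 0.0016), and *PHEX*, an endopeptidase of bone mineralization, fell by 0.74. *PLAU*, the urokinase, was at 361, 328 and 346 CPM and 203, 202 and 206 CPM (log2 -0.76 ± 0.11, adjusted p = 7.2e-05). *ITGAV*, the integrin αV, was at 201, 192 and 178 CPM and 113, 129 and 119 CPM (log2 -0.66 ± 0.08, adjusted p = 1.7e-05), and *ITGA3* rose by 0.57. Of 16 integrin genes 5 were higher and 5 lower, and of 21 matrix proteases and inhibitors 4 and 4, against 21.0 and 20.6% of all genes.

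Of 23 TGF-beta targets and ligands 6 were higher and 9 lower, against 21.0 and 20.6% of all genes. The counts were 3 and 10 with offsets for GC content and length, 2 and 11 with library size as the only scaling and 5 and 5 without replicate 2 of the 24 h set. The ligand *TGFB1* and the receptor *TGFBR2* rose by 0.49 and 0.46, and *GREM1*, an antagonist of bone morphogenetic proteins, was at 279, 249 and 241 CPM at 6 h and 178, 138 and 147 CPM at 24 h (log2 -0.73 ± 0.14, adjusted p = 0.00064). Of 22 YAP/TEAD targets 11 were higher and 3 lower, but 4 and 2 with offsets for GC content and length, 5 and 3 without replicate 2 and 7 and 3 without replicate 3 of the 6 h set, and 6 and 2 without replicate 3 of the 24 h set. *CCN1*, a matricellular protein, was at 239.9, 162 and 193 CPM and 238, 376 and 386 CPM (log2 0.75 ± 0.19, adjusted p = 0.0046), and its sets overlapped in replicate 1 of the 24 h set, which lay among the 6 h values. *FGF2*, a growth factor, was at 16.8, 15.4 and 16.6 CPM and 9.00, 8.88 and 10.51 CPM (log2 -0.78 ± 0.09, adjusted p = 1.3e-05). Of 30 growth factors and receptors 9 were higher and 6 lower.

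Interferon-stimulated genes were low, and the few that differed went both ways, with 3 of 29 higher and 6 lower, and 1 and 6 without replicate 2 of the 24 h set or replicate 1 of the 6 h set. *IFI44L* was at 1.52, 3.28 and 2.34 CPM at 6 h and 0.268, 0.202 and 0.412 CPM at 24 h (log2 -3.004 ± 0.32, adjusted p = 4.9e-06), *GBP1*, a guanylate-binding protein, fell by 1.54 and *ISG15*, a ubiquitin-like modifier, rose by 0.75. Of 17 clock genes 2 were higher and 4 lower: *PER1* was at 22.6, 20.2 and 22.5 CPM and 35.5, 32.9 and 31.6 CPM (log2 0.61 ± 0.09, adjusted p = 7.9e-05) and *BHLHE41*, a repressor in the clock, at 11.5, 11.03 and 8.81 CPM and 5.92, 5.92 and 6.45 CPM (log2 -0.78 ± 0.15, adjusted p = 0.00061). FOXO targets had 5 of 21 higher and 2 lower, immediate-early genes 4 of 27 and 1, lysosome and autophagy genes 6 of 27 and 5, host transcripts of small nucleolar RNAs 5 of 19 and 3, and MondoA and its targets 2 of 5 and 1, against 21.0 and 20.6% of all genes. With offsets for GC content and length immediate-early genes were at 1 higher and 3 lower and lysosomal genes at 3 and 4, and with library size as the only scaling at 2 and 5 and at 2 and 11. Of 24 genes that the study followed or that serve as references 8 were higher and 6 lower, and 5 and 6 without replicate 1 of the 24 h set. Among the references *GAPDH* and *ACTB* rose by 0.35 and 0.40 and *HPRT1* fell by 0.31, and none of the 3 was called with offsets for GC content and length. With library size as the only scaling *GAPDH* and *ACTB* were at 0.21 and 0.25.

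The differences between the sets followed the base composition of the transcripts. In 5 equal classes of GC content, from the lowest to the highest, the median log2 difference was -0.25, -0.11, 0.03, 0.18 and 0.29. In the lowest class 76 genes were higher and 1444 lower, and in the highest 1350 were higher and 138 lower. The NXP800 libraries gave -0.33, -0.16, 0.05, 0.21 and 0.37. Exon length was related more weakly, with medians from 0.08 in the shortest of 5 classes to -0.02 in the longest. By nuclear chromosome the medians went from -0.21 on chromosome 4 to 0.25 on chromosome 19 (0.91 for the mitochondrial genome), which are also the chromosomes with the lowest and the highest median GC content among the autosomes, at 42.3 and 58.6%.

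With offsets that remove the trend with GC content and length from each library, 4579 genes were called, 2178 higher and 2401 lower. The sterol and fatty acid lists had 18 of 24 and 8 of 14 called higher, the inflammatory list had 12 of 19 lower, mitochondrially encoded genes 11 of 15 higher, ribosomal proteins 51 higher and 3 lower and the respiratory chain 39 higher and 3 lower. Values of named genes that were still called but shrank by more than 1.5 times were those of *NDUFV2* (-0.31), *CDK1* (-0.16), *CCNE2* (-0.35), *ITGAV* (-0.33) and *FGF2* (-0.50) among the lower genes. Among the higher ones they were *CDC20* (0.36), *SDF2L1* (0.40), *TKT* (0.36), *TGFB1* (0.20), *ITGA3* (0.25), *ERBB2* (0.47), *ISG15* (0.36), *SLC16A3* (0.51) and *PER1* (0.30). *ME1*, *RB1* and *RN7SK* were not called. Counts that shrank included those of histones, YAP/TEAD targets, HSF1 targets and matrix genes, as given above. The offsets remove any relation to GC content, of whatever origin, and the library set and the cells cannot be told apart by them.

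Genes that lie opposite another gene were more often far lower at 24 h. Among 8212 tested genes that share no exon base with a gene on the other strand, 1.42% were called more than 2-fold lower at 24 h and 1.56% more than 2-fold higher. The shares of these genes under NXP800 were 6.83% lower and 7.45% higher. Where more than 50% of exon bases were shared with the other strand (235 genes), 21.3% were called more than 2-fold lower and 1.28% higher, and under NXP800 20.9% and 4.26%. Restricted to protein-coding genes, the shares more than 2-fold lower were 1.31% of 7499 and 9.59% of 146.

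Of 573 tested symbols ending in -AS and a number, which mark antisense RNAs, 185 were lower and 31 higher, where 20.6% of all genes were lower. Of the 573, 144 (25.1%) were lower by more than 2-fold, where 712 of all 15979 tested genes and 1.87% of protein-coding genes were. The median log2 difference of the antisense symbols was -0.29 in DMSO and -0.22 under NXP800. Of 1204 tested LOC symbols 306 were lower and 42 higher, 21.8% were lower by more than 2-fold and the median was -0.27. Of 215 LINC symbols 22 were lower, with a median of 0.00. Over all 1652 antisense symbols the summed level was 1601 to 1743 CPM at 6 h and 1334 to 1380 CPM at 24 h. For 514 of them the gene named as partner was tested too: the median log2 difference of the antisense gene was -0.11 where the partner was in the lowest of 3 classes by level, -0.35 in the middle and -0.51 in the highest, while the partners' own medians were -0.02, -0.01 and 0.06. Reads of *VIM-AS1* were 1.02 to 2.49% of those of *VIM* at 6 h and 0.329 to 0.353% at 24 h. A further 23 genes had no count in any DMSO 24 h library and between 30 and 126 counts over the 6 h set, none was the reverse, and 13 of the 23 had none at 24 h under NXP800 either. Of these, 8 were antisense symbols and 10 were LOC symbols. The library kit keeps strand, but the strand setting of the counting is not given in the sources used here, and the part of strand in these values was not tested.

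**Figure D5:**
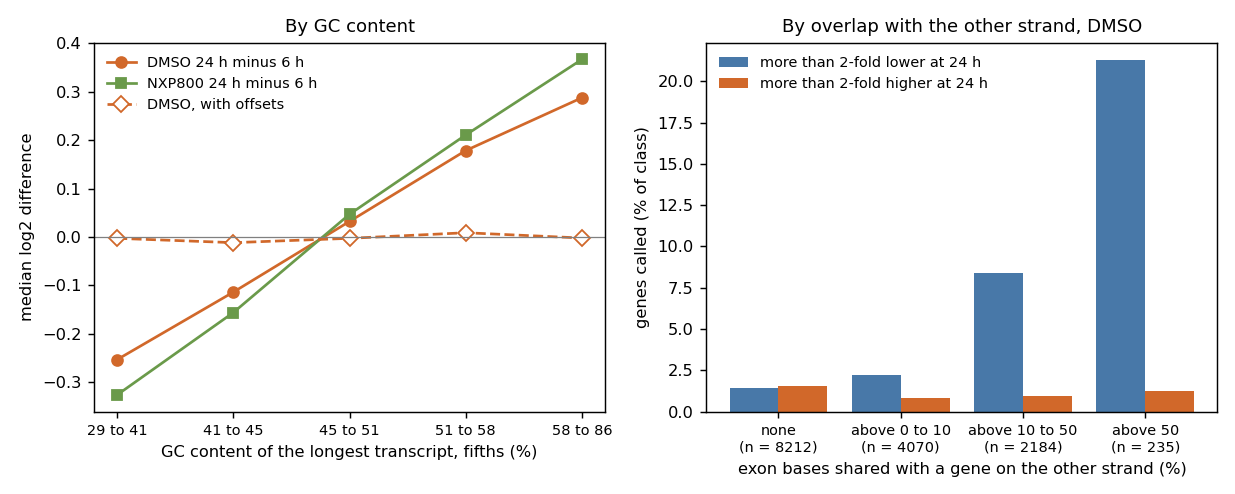
Left, median log2 difference from 6 h to 24 h in 5 classes of GC content for DMSO, for NXP800 and for DMSO with offsets, which is flat at 0. Right, share of tested genes called more than 2-fold lower or higher at 24 h in DMSO, by the share of exon bases on the other strand of another gene; the lower calls go from 1.42 to 21.3% of the class and the higher calls go from 1.56 to 1.28%.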

How the data were processed

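RNA was sequenced from MNNG/HOS cells in 12 libraries, 3 in each of 4 groups (DMSO or NXP800, 6 h or 24 h), and groups were taken from the titles. The deposited files hold raw counts of read pairs per gene, which the authors made with fastp 0.20.1, STAR 2.7.5a and HTSeq 0.12.4 on hg38 with RefSeq genes, per the submitters' processing notes and the study's methods. The strand setting of the counting is not given in the sources used here. Lines for reads without a gene were kept out of the library sizes and of all tests, and their shares are given with the libraries.

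Counts were scaled by TMM and tested with edgeR 4.0.16 in R 4.3.3 (quasi-likelihood test, 4 groups in 1 model, filterByExpr), leaving 15979 of 43236 symbols, with Benjamini-Hochberg adjusted p below 0.05 over all genes tested in each of 3 contrasts per gene: DMSO 24 h minus 6 h, NXP800 24 h minus 6 h, and their difference. Single library measures were compared by the exact two-sided permutation test. Levels between genes were compared as CPM per kilobase of exon. Coordinates and promoters came from RefSeq on GRCh38.p14, where 42599 symbols matched. Exon lengths and shares of exon bases came from the union of all exons of a symbol in GENCODE, and GC content from its longest transcript there. A GC content and length were found for 92.0% of tested genes. The counts were made on RefSeq genes, and a union of exons can be longer than any single transcript, so levels per kilobase depend on this choice. GC and length offsets were fitted per library with splines of 5 degrees of freedom.

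Genes named were the 10 highest and 10 lowest log2 differences among called genes whose log2 CPM averaged 3 or more and whose sets did not overlap (no LOC or LINC symbols), the 15 leading genes per kilobase, members of the marker, tumour and study lists, and the 3 largest called differences each way in each of 41 lists. *NFKBIA*, *TNFAIP3*, *ICAM1*, *ME1* and *SREBF2* and the antisense genes fall partly or wholly outside that rule and were chosen after their values were seen. Some members of the lists are not reported here by name. Members and lists were chosen with earlier results of these data known, and counts for a list are descriptions beside those of all genes. Counts were also simulated from the mean levels of these libraries, with 1 common dispersion (0.00723) for every gene and 200 of 15979 genes changed between 3 and 3 libraries. On these the test recovered 82% of 2-fold and 65% of 1.5-fold changes and called 9 unchanged genes. A spread that varies from gene to gene, the trend with GC content and the many genes called here were left out. These rates therefore do not carry over to the comparison of the sets. Pairs of replicates differed by more than counting allows (chi-square over degrees of freedom 7.95 to 28.6), so none was counted as a repeat. The 10 alternatives and the leaving out of each library are given in the closing section, where DESeq2 1.42.0 was one alternative.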

Additional observations from a re-analysis of the deposited data

Results flagged for a closer look

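The change from 6 h to 24 h differed between NXP800 and DMSO cells for 4129 genes by edgeR's test of the difference of both changes, and these genes among those named in the report passed that test. Values are log2, the NXP800 change minus the DMSO change, over 3 libraries in each of the 4 groups.

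Among the genes that stood furthest apart in the controls these were *COL2A1* (-2.25), *HDAC9* (-0.61), *CDKN1A* (-0.45), *ZSCAN31* (1.55), *GAS5* (1.09) and *PTPRF* (0.56). Of the lipid genes they were *SREBF1* (-0.59), *EBP* (-0.61) and *FASN* (-0.56), with each change lower under NXP800. Of the inflammatory list *CXCL8* (-3.26), *BIRC3* (-2.40), *NFKBIA* (-0.84) and *ICAM1* (-0.87) changed further down under NXP800, and *TNFAIP2* (0.63) further up. The cell cycle genes were *CDK1* (-1.19), *MKI67* (-1.54), *CDC20* (-0.53) and *CKS2* (-0.97), all with a lower change under NXP800.

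For stress genes the values were *DDIT4* (-1.08), *HSPA1B* (1.02) and *SQSTM1* (0.74). In matrix, bone and adhesion genes they were *FBN1* (0.63), *SPP1* (-1.28), *PHEX* (-1.88), *GREM1* (-1.41), *TGFBR2* (-1.05) and *ITGAV* (-1.09), and in growth factor receptors *PDGFRA* (-1.12), *PDGFRB* (-0.76) and *ERBB2* (0.42). Genes of glycolysis, the clock and references were *PGAM1* (-0.30), *SLC16A3* (-0.41), *HPRT1* (-0.35) and *PER1* (-0.52). Of the genes given for their level, the values were *EIF2AK2* (0.80), *EIF2AK3* (0.45), *CCND1* (0.56), *FTL* (0.72) and *RN7SK* (1.89) with a higher change under NXP800, and *SPARC* (-1.23), *CD44* (-0.94), *MET* (-0.41), *RB1* (-0.34), *NT5E* (-0.31) and *FABP4* (-3.12) with a lower one. A group of 3 libraries is too small for a test of single outlying libraries, and none was made.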

How the results depend on the processing

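The 97 genes followed through the alternatives kept their direction wherever a fit gave them a value (91 genes with at least 10 counts in every library, 96 in the fit of the 6 DMSO libraries) and without each library. Calls were lost for 9 of them with offsets for GC content and length, 8 with these and the replicate block together, 5 at an adjusted p below 0.01, 3 with library size as the only scaling and 1 in DESeq2's Wald test, and in 7 of the single-library omissions, which concerned *RPS25*, *TRIB3*, *HSPA5* and *VIM*. The number of genes called between the DMSO sets was 6606 with DESeq2's size factors, 7132 with library size only, 6790 with no filter on low counts, 5980 with at least 10 counts in every library, 6588 in a fit of the 6 DMSO libraries, 6270 with DESeq2, 4479 at an adjusted p below 0.01 and 4579 with the offsets. With library size only 1891 were higher and 5241 lower, with the offsets 2178 were higher, and at an adjusted p below 0.01 2190 were lower. At least 10 counts in every library left 250 genes beyond 2-fold, since it removes genes that are low in one set, and raised the root-mean-square difference, over other genes than the 9577, to 0.237 within the 6 h set, 0.259 within the 24 h set and 0.460 across them, which was 0.395 with library size only. The difference between the NXP800 and DMSO changes was called for 2236 genes at an adjusted p below 0.01. Without single libraries the DMSO calls went from 5465 (without replicate 1 of the 6 h set) to 6938, those higher from 2788 to 3515, those lower from 2651 to 3548, those beyond 2-fold from 844 to 992, the NXP800 calls from 8919 to 9936 and the calls of the difference from 3200 to 4154. Of the lists given by counts, integrins lower went from 5 to 3 without replicate 3 of the 6 h set, matrix proteases lower from 4 to 2 without replicate 2 or 3 of the 24 h set or replicate 3 of the 6 h set, lysosomal genes lower from 5 to 3 without replicate 2 of either set, and immediate-early genes higher from 4 to 2 without replicate 2 of the 6 h set.

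Pairing by replicate number was checked over 9591 genes. Deviations of same-numbered DMSO libraries correlated at -0.272 to 0.0824 and those of different numbers at -0.192 to 0.206. These ranges overlap, and deviations from the means of such small groups are not independent. Whether libraries of the same number share more than the number cannot be told from them. With the replicate block 6905 genes were called between the DMSO sets (3506 higher and 3399 lower), 9968 between the NXP800 sets and 4387 for the difference, and 4876 with the block and the offsets together. The block ended no call among the 97 genes. Depth limits genes such as *CXCL1*, where the 24 h value rests on 1 to 7 counts.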
